A study of Mus musculus with 9 samples.

Results

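Rod and cone phototransduction genes, the components that turn the absorption of light into a change of membrane current, are described here in single cells of the mouse retina. The set holds 35 of the 37725 genes of the matrix. Its members were listed by name from the known parts of the cascade, and all 35 were found among the gene names. By textbook knowledge 10 of them are rod forms, 11 are cone forms and 14 are components that both kinds of photoreceptor can use.

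Rods serve vision in dim light and cones serve vision in bright light and colour. In both, light activates an opsin, the opsin activates the G protein transducin, and transducin releases the inhibition of a phosphodiesterase that breaks down cGMP, so that cation channels held open by cGMP close. The light response ends when the opsin is phosphorylated and capped by an arrestin, transducin hydrolyses its GTP, and guanylate cyclases make cGMP again, and many of these parts are encoded by separate rod and cone genes.

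The study deleted the microRNAs miR-204 and miR-211 from the retinal pigment epithelium (RPE), the cell layer that serves the photoreceptors from behind. All mice carried RPE65-ERT2-Cre together with floxed alleles of miR-211 and miR-204, so the controls had the tamoxifen-dependent Cre and the floxed alleles too, and Cre was driven from the Rpe65 gene, whose known site of use is the RPE. The 5 double knockout (dKO) mice, S05 to S09, were injected with tamoxifen at 75 mg/kg in corn oil on 5 days from postnatal day 28, the 4 control mice, S01 to S04, received corn oil alone, and retinas were taken 6 months after induction. Separate sample numbers and 1 shared animal number stand on S06 and S07 in the labels, and they were counted as different mice here. The microRNA genes themselves were not analysed here, so the deletion was not checked in these counts.

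The values are unique molecular identifiers (UMIs, 1 for each captured RNA molecule) in 31089 cells, with a median of 7709 UMIs per cell. The control mice S01 to S04 had 52226056, 52232950, 43978587 and 22401856 UMIs, and the dKO mice S05 to S09 had 15079143, 66528160, 53382574, 44045870 and 42369620. Cells were gated by the UMIs of marker genes, none of them a member except in 1 alternative gate of cones, and a cell was given a class only where it passed exactly 1 gate. This gave 16084 rods (51.7% of all cells), 1664 cones (5.35%) and 8538 cells of other types (27.5%). A further 3333 cells passed no gate and 1470 passed several, of which 295 passed those of rods and of cones, and none of these entered the comparisons. The median depth was 4721 UMIs in rods and 12159.5 in cones. A level is given in CPM, the UMIs of a gene per 1000000 UMIs of the same class in the same mouse, and the mouse was the replicate throughout. No full cell barcode was found in more than 1 mouse (0 barcodes), whereas 2808 were found in more than 1 of the 8 sublibraries, whose cells were kept apart. In 2589 barcodes held by exactly 2 cells, the cells were of 1 class in 35.5% of pairs, against 35.3% given by the make-up of the mouse. In all, 3599 pairs of cells shared a barcode across sublibraries, against 2799 expected from the use of wells and sublibraries, and the cause of this excess was not tested.

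Control mouse S04 and dKO mice S05 and S07 stood apart from the other 6 mice. They had 424, 419 and 404 CPM of Y-linked genes over all their cells, and the others had between 4.25 and 4.96. S06 and S07, whose labels share 1 animal number, were at 4.43 and 404 CPM, as samples of 1 mouse would not be. Rods made up 86.4, 71.9 and 79.4% of their cells, against 33.2% to 46.4% in the others. Their medians of 4775, 4863 and 5412.5 UMIs per cell lay below the 8118 to 10340.0 of the other mice. In rods these 3 mice were also the highest for several members. Gnat1, for example, was at 4882, 3059 and 3863 CPM in S04, S05 and S07, and the other mice had 1569.9 to 2308. Results are therefore given with and without these 3 mice.

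Whether rods and cones use separate forms of each component was examined first, by comparing the rods and the cones of the same 9 mice. The rod forms Gnat1, Gnb1, Pde6a, Pde6b, Cnga1, Cngb1 and Slc24a1 were nearly restricted to rods, with cone levels between 2.48% and 4.36% of the rod levels, and the cone forms were at 0.779% to 6.69% of their cone levels in rods. The rod forms Gngt1, Pde6g and Sag did not follow this split, since cones held 32.7%, 52.3% and 62.2% of the rod level. Among the shared components, Gucy2f, Reep6 and Guca1b were as one-sided as the rod forms, or nearly so, while Rgs9, Grk1, Gucy2e, Rcvrn, Rgs9bp and Gnb5 differed by less than 2-fold.

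In the paired test of all genes, 23 of the 35 members were higher in rods and 12 were higher in cones (edgeR, quasi-likelihood F test, p adjusted by the Benjamini-Hochberg method, mouse as block), and 35 of 35 members passed the filter on low counts. Over all 14497 genes tested, 28.5% were higher in rods and 27.6% higher in cones. The 23 were the 10 rod forms and 13 of the 14 shared components, and the 12 were the 11 cone forms and Guca1a. DESeq2 gave the same numbers, 23 and 12. Without S04, S05 and S07 the numbers were 22 and 12. The median log2 difference, rods against cones, was 0.64 over the members and 0.01 over all genes tested. Of 20 further genes of photoreceptor function, a list of trafficking, visual cycle, outer segment and inner segment genes, 11 were higher in rods and 6 in cones. On the rod side these included the axonemal gene Rp1 (log2 2.09), the retinol dehydrogenase gene Rdh12 (1.62) and the matrix gene Impg1 (1.24). On the cone side they were led by the retinoid carrier gene Rbp3 (-1.23), by Pde6d (-0.96), which encodes a carrier of prenylated proteins, and by the phosphodiesterase chaperone gene Aipl1 (-0.69).

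**Figure D1:**
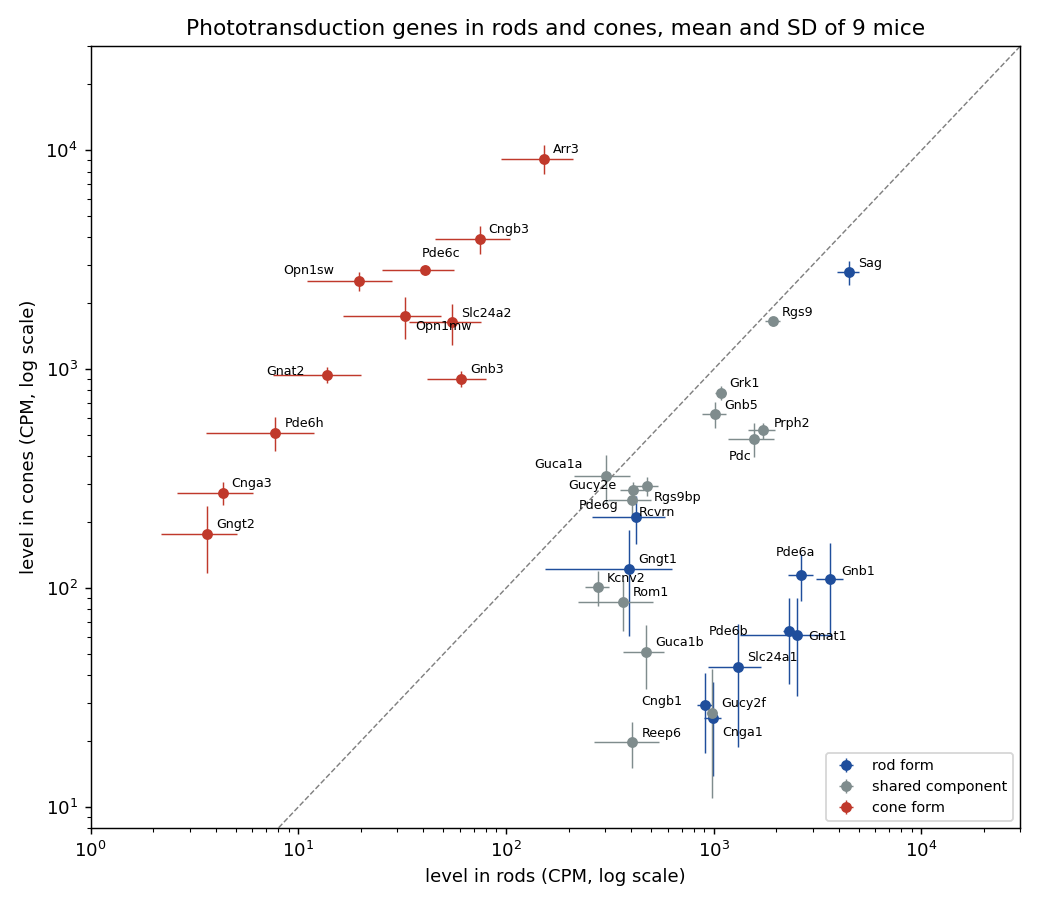
Level of each member in rods (x axis, CPM, log scale) and in cones (y axis, CPM, log scale); points are means and bars SDs over 9 mice, and the dashed line marks equal levels. Cone forms lie at upper left, Gnat1, Gnb1, Pde6a, Pde6b, Cnga1, Cngb1, Slc24a1 and the shared Gucy2f and Reep6 at lower right, and Sag, Rgs9, Grk1, Gnb5 and Guca1a near the line.

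The opsins are the light receptors. Opn1sw, which encodes the short-wavelength cone opsin, had 11.5, 16.7 and 40.5 CPM (lowest, median and highest of 9 mice) in rods and 2213, 2489 and 2946 CPM in cones. Its log2 difference of -7.09 (standard error 0.15, adjusted p = 2.94e-17) was the largest of any member, and the lowest cone value lay far above the highest rod value. Opn1mw, the gene of the middle-wavelength cone opsin, had 16.3, 23.8 and 57.8 CPM in rods and 1433, 1747 and 2685 CPM in cones, a log2 difference of -5.87 (standard error 0.20, adjusted p = 1.14e-14). Between the opsin genes, levels were compared per kb of annotated exon, which gave 989.7 ± 94.4 and 1125 ± 243 CPM per kb (SD, n = 9) for Opn1sw and Opn1mw in cones. This difference lay within the spread between mice, with Opn1sw higher in 3 mice and Opn1mw in 6. By UMIs Opn1sw was the higher in 8 of 9 mice, so that the order turns with the scaling to 2557 and 1562 bases of exon.

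Transducin consists of an alpha subunit that binds GTP and a beta and gamma pair. Gnat1, the rod alpha subunit, had 1569.9, 1923 and 4882 CPM in rods and 31.5, 47.4 and 124 CPM in cones, a log2 difference of 5.31 (standard error 0.09, adjusted p = 3.36e-18). Gnat2, the cone alpha subunit, had 7.17, 11.7 and 22.3 CPM in rods and 852, 932 and 1083 CPM in cones, a difference of -6.17 (standard error 0.17). No mouse had a cone value of Gnat1 within the range of the rods, or a rod value of Gnat2 within the range of the cones. Per kb, Gnat1 exceeded Gnat2 in rods by a log2 ratio of 7.99, and Gnat2 exceeded Gnat1 in cones, with a log2 ratio of Gnat1 to Gnat2 of -3.61.

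The beta subunits kept the same split at the level of the RNA. Gnb1, the beta subunit of rod transducin and of other G proteins, had 2999, 3609 and 4494 CPM in rods and 76.7, 90.3 and 232 CPM in cones (log2 difference 5.09, standard error 0.10). Gnb3, the cone beta subunit, had 34.005, 56.8 and 101 CPM in rods and 846, 885 and 1087 CPM in cones (log2 difference -3.99, standard error 0.11). At 6.69% ± 1.73 (SD, n = 9) of the cone level, Gnb3 had the highest relative level in rods of all cone forms.

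The gamma subunits did not mirror each other. Gngt2, the cone gamma subunit, was at 2.1005% ± 0.774 (SD, n = 9) of its cone level in rods. Gngt1, the rod gamma subunit, had 220.0, 255 and 889 CPM in rods and 77.9, 88.2 and 246 CPM in cones, which was 32.7% ± 4.26 (SD, n = 9) of the rod level, and the log2 difference was 1.57 (standard error 0.07, adjusted p = 2.72e-13). Gngt1 was higher in rods than in cones in 9 of 9 mice, although the ranges over mice overlap between the classes, because S04, S05 and S07 were high in both. Per kb in cones, 27.4 ± 13.9 and 44.6 ± 15.1 CPM per kb were measured for Gngt1 and Gngt2, and Gngt2 was the higher in 9 of 9 mice. Gngt2 overlaps Abi3 on the opposite strand, and whether counting used strand is not given in the sources used here, so its UMIs are uncertain. Pdc encodes phosducin, which binds the beta and gamma pair, and cones held 32.1% ± 7.02 (SD, n = 9) of the rod level of this shared component. Pdc overlaps Gm37764 on the same strand and 2310030A07Rik on the opposite strand.

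The 3 promoters below are shown because Gngt1, Gnat2 and the arrestin gene Sag stand for a rod form shared in part with cones, a cone form with little signal in rods, and a rod form abundant in both. They are the 250 bases before the RefSeq start of each gene (build GRCm38.p6, plus strand, 5′ to 3′), at chr6:3993758-3994007 for Gngt1, chr3:108092816-108093065 for Gnat2 and chr1:87803430-87803679 for Sag. Capitals mark matches to TAATCC, the letters bound by homeodomain factors such as CRX, or to TGCTGA, letters of the element bound by Maf-type factors such as NRL; TAATCC on the minus strand reads GGATTA.
Gngt1: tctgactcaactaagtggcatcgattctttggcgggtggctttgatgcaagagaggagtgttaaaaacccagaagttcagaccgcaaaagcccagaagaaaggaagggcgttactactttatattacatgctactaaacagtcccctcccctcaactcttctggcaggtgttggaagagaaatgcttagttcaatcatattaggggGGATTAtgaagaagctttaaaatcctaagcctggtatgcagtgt
Gnat2: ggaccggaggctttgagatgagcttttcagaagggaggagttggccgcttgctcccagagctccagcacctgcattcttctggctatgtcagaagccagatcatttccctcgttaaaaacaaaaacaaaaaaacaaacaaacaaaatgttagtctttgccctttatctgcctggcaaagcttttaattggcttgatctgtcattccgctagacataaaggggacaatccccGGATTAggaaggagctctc
Sag: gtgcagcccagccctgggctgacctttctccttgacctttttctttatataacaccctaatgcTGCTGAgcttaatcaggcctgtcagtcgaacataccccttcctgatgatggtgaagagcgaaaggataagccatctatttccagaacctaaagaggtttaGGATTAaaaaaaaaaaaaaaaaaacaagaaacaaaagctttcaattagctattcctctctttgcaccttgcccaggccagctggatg
On both strands, TAATCC lay in 9 of the 23 members found in the promoter table (Cnga1, Cngb1, Gnat2, Gnb5, Gngt1, Guca1a, Gucy2e, Gucy2f and Sag) and in 6.38% of all 27025 promoters. TGCTGA lay in 4 of the 23 (Opn1sw, Pde6b, Rgs9 and Sag) and in 15.8% of all promoters. In the sequences shown, no match overlapped another. TAATCC began 44 bases before the start of Gngt1, 19 before that of Gnat2 and 87 before that of Sag, and TGCTGA 187 before that of Sag. A match describes these letters only. Gnat1, Pde6a, Pde6g, Rcvrn, Guca1b, Rgs9bp, Gnb3, Gngt2, Pde6c, Cngb3, Reep6 and Kcnv2 were not in the table.

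The phosphodiesterase that breaks down cGMP has an alpha and a beta catalytic subunit in rods, paired alpha-prime subunits in cones, and a small inhibitory gamma subunit in each. Pde6a, the rod alpha subunit, had 2299, 2504 and 3426 CPM in rods and 86.5, 104 and 170.1 CPM in cones (log2 difference 4.50, standard error 0.07, adjusted p = 1.99e-18). Pde6b, the rod beta subunit, had 2144, 2282 and 2620.5 CPM in rods and 36.7, 54.3 and 121 CPM in cones (log2 difference 5.27, standard error 0.12). Pde6c, the cone catalytic subunit, had 23.02, 35.7 and 60.1 CPM in rods and 2584, 2843 and 3107 CPM in cones (log2 difference -6.23, standard error 0.17). For these 3 subunits the ranges in rods and cones were far apart. Per kb in rods, Pde6a and Pde6b were at 562 ± 77.8 and 455 ± 29.3 CPM per kb, and Pde6a was the higher in 9 of 9 mice.

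The inhibitory subunits differed from the catalytic ones in their split. Pde6h, the cone gamma subunit, had 2.74, 5.89 and 14.9 CPM in rods and 354, 556 and 624 CPM in cones. Pde6g, the rod gamma subunit, had 289, 335 and 767 CPM in rods and 162, 187 and 303 CPM in cones, with a log2 difference of 0.90 (standard error 0.07, adjusted p = 2.96e-09), and it was higher in the rods of 9 of 9 mice. Cones thus held RNA of both gamma subunits, at 91.5 ± 22.6 and 65.3 ± 11.6 CPM per kb (SD, n = 9) for Pde6g and Pde6h, and Pde6g was the higher in 8 of 9 mice on this scale. By UMIs the order was the reverse, with Pde6h higher in 9 of 9 mice, so that it turns with the annotated exon lengths of 2317 bases for Pde6g and 7847 for Pde6h. Rods held almost none of Pde6h, with a log2 ratio of Pde6g to Pde6h of 7.64 per kb. Pde6h overlaps Arhgdib on the opposite strand and is uncertain for that reason.

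The cGMP-gated channel is built of A subunits and modulatory B subunits. Cnga1, the rod A subunit, had 883, 979 and 1197 CPM in rods and 18.4, 21.5 and 55.1 CPM in cones (log2 difference 5.35, standard error 0.11, adjusted p = 2.71e-17). Cnga3, the cone A subunit, had 2.32, 4.12 and 6.45 CPM in rods and 225, 269 and 348 CPM in cones (log2 difference -6.00, standard error 0.12). Both genes were split between the classes without overlap in any mouse.

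Cngb1, the rod B subunit, had 834, 891 and 1066 CPM in rods and 21.8, 23.3 and 58.7 CPM in cones (log2 difference 5.02, standard error 0.10). Cngb3, the cone B subunit, had 40.03, 65.3 and 122 CPM in rods and 3155, 3860.4 and 5169.7 CPM in cones (log2 difference -5.83, standard error 0.15). The balance of A to B subunit RNA ran in opposite directions, on the scale of CPM per kb of annotated exon. Whether reads from introns were counted was not examined here, so this balance is uncertain. In rods the A subunit led, with 157 ± 14.1 and 96.96 ± 8.18 CPM per kb for Cnga1 and Cngb1. In cones the B subunit led, with 45.2 ± 5.58 and 839 ± 122 CPM per kb for Cnga3 and Cngb3, and each order held in 9 of 9 mice. By UMIs, Cnga1 was above Cngb1 in 7 of 9 mice. On the same strand, Cnga1 overlaps Gm5297 and Gm73636 and Cngb3 overlaps Gm11877, so their UMIs are uncertain.

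The exchanger that removes calcium is encoded by Slc24a1 in rods and Slc24a2 in cones. Slc24a1 had 1056, 1159 and 2206 CPM in rods and 25.8, 31.9 and 101 CPM in cones (log2 difference 5.00, standard error 0.11, adjusted p = 6.97e-17). Slc24a2 had 29.4, 49.4 and 79.5 CPM in rods and 941, 1739.6 and 2067 CPM in cones (log2 difference -4.99, standard error 0.15). In both genes the classes were apart in every mouse.

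Arrestins bind the phosphorylated opsin and end its signal. Arr3, the cone arrestin, had 89.4, 159.6 and 231 CPM in rods and 7635, 8925 and 11732 CPM in cones (log2 difference -6.02, standard error 0.18). Sag, the rod arrestin, had 3741, 4554 and 5475 CPM in rods and 2421, 2645 and 3397 CPM in cones, and its log2 difference was 0.64 (standard error 0.04, adjusted p = 6.04e-10). Sag was higher in the rods of 9 of 9 mice, but cones kept 62.2% ± 5.08 (SD, n = 9) of the rod level. Cones thus held RNA of both arrestins, at 312 ± 39.5 and 3884 ± 592 CPM per kb for Sag and Arr3, and Arr3 was the higher in 9 of 9 mice.

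Other shut-off genes were higher in rods by less than 2-fold, as Sag was. Grk1, the gene of an opsin kinase, was at 72.4% ± 6.01 (SD, n = 9) of the rod level in cones, with a log2 difference of 0.42 (standard error 0.05, adjusted p = 5.77e-07), and Rcvrn, which encodes the kinase's calcium-dependent inhibitor recoverin, was at 64.5% ± 10.7 (SD, n = 9). The complex that speeds GTP hydrolysis by transducin consists of the products of Rgs9, Gnb5 and the membrane anchor gene Rgs9bp. Cones held 86.4% ± 6.98 (SD, n = 9) of the rod level of Rgs9, 61.5% ± 3.45 (SD, n = 9) of Gnb5 and 62.3% ± 10.1 (SD, n = 9) of Rgs9bp. The difference of Rgs9 was small, with a log2 value of 0.17 (standard error 0.05, adjusted p = 0.00504). It was 0.10 without S04, S05 and S07 (adjusted p = 0.0507), where the call was lost. Rcvrn overlaps Glp2r on the opposite strand.

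Guanylate cyclases restore cGMP, and the proteins encoded by Guca1a and Guca1b activate them when calcium is low. The pair of cyclase genes differed from each other. Gucy2e was at 69.3% ± 9.42 (SD, n = 9) of the rod level in cones. Gucy2f had 889, 988 and 1110.3 CPM in rods and 17.2, 20.4 and 68.1 CPM in cones, a log2 difference of 5.34 (standard error 0.14, adjusted p = 3.81e-16), which is the size seen for the rod forms. The pair of activator genes differed likewise. Guca1b was at 10.8% ± 1.86 (SD, n = 9) of the rod level in cones (log2 difference 3.16, standard error 0.06). Guca1a had 240.3, 269 and 533 CPM in rods and 255, 304 and 520.0 CPM in cones, and was the higher in rods in 4 mice and in cones in 5. Its log2 difference of -0.17 (standard error 0.05, adjusted p = 0.0143) did not pass the threshold in 8 of the alternative settings. Guca1a overlaps Gm50461 on the same strand.

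The remaining members shape the outer segment or the membrane. Prph2 and Rom1 encode the tetraspanins of the disc rim, and cones held 31.02% ± 4.102 (SD, n = 9) and 24.96% ± 5.38 (SD, n = 9) of the rod levels, with log2 differences of 1.65 (standard error 0.06) and 1.96 (standard error 0.09). Kcnv2, a gene of a modulatory potassium channel subunit, was at 36.6% ± 4.303 (SD, n = 9) of the rod level in cones. Reep6, which encodes a membrane-shaping protein of the endoplasmic reticulum, was nearly restricted to rods, at 261, 343 and 676 CPM in rods and 13.6, 17.8 and 26.9 CPM in cones (log2 difference 4.26, standard error 0.07, adjusted p = 7.01e-18). The members together took 3.19% ± 0.598 (SD, n = 4) of the UMIs of control rods and 3.44% ± 0.259 (SD, n = 4) of those of control cones.

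Low levels of Gnat1 in cones or Gnat2 in rods are set beside the marker genes of other cell types that rods and cones hold. In rods, the cone marker sum was 1741 CPM ± 79.8 (SD, n = 4) in control mice, of which Thrb had 1708 on average over all mice, against 4643 ± 159 in cones. The ON bipolar marker sum in rods was 1738 CPM ± 241, mostly Prkca at 1614, while the sums of Müller glia and RPE markers were 142 and 27.04 CPM. All 6 cone markers had UMIs in both classes. Their part, and that of doublets or free RNA, in the low levels of rod forms in cones and of cone forms in rods was not tested, and no doublet caller was run.

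Spill-over into other cells was examined next. Most rod forms, Gnat1 and Pde6b among them, were found at a low and nearly even level in the other types with at least 2 mice, while Gnb1 was uneven and a few further members stood above this level in some types. Slc24a1 and Rgs9 stood out in RPE cells, Gnb3, Gnb5, Rgs9bp and Cngb1 in ON bipolar cells, and Gucy2e, Cngb3, Gngt2 and Gnat2 in OFF bipolar cells. Slc24a2 was shared with horizontal, ganglion, amacrine and OFF bipolar cells, and Gucy2f with Müller glia. ON bipolar cells carry the signal of photoreceptors when light increases and OFF bipolar cells when it decreases.

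The 8 rod forms Gnat1, Gngt1, Pde6a, Pde6b, Pde6g, Cnga1, Cngb1 and Slc24a1 were found at low levels in the other types, and the part of free RNA, doublets or the cells' own RNA in them was not tested. Their median level ran from 1.52% of the rod level in horizontal cells to 3.17% in ON bipolar cells, and was 2.61% in Müller glia and 2.74% in RPE cells. Within Müller glia these members lay between 2.06% (Cnga1) and 2.95% (Gngt1), and in amacrine cells between 1.85% (Gnat1) and 2.31% (Pde6g). Of the 2 rod forms outside this list, Sag ran from 1.48% in horizontal to 3.26% in ON bipolar cells, and Gnb1, which other G proteins use too, from 2.7999% in ON bipolar to 13.4% in RPE cells. Within the list the exceptions were Slc24a1 in RPE cells at 65.96%, and Cngb1 at 7.71% in ON and 4.66% in OFF bipolar cells. The cone forms Opn1sw, Opn1mw, Arr3 and Cnga3 were at 0.3502%, 0.567%, 0.443% and 0.532% of their cone levels in Müller glia, and of Opn1sw, Opn1mw, Pde6c, Cnga3 and Arr3 the highest level in a type with at least 2 mice was that of Pde6c in RPE cells, at 2.11%. Pde6h was at 5.39% of its cone level in pericytes.

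The share of these 8 members in the other cells differed between dKO and control mice by less than the spread. They took 0.0309% ± 0.0102 (SD, n = 4) of the UMIs of the pooled other cells of control mice and 0.0298% ± 0.00791 (SD, n = 5) of those of dKO mice. Per mouse the share was 0.0293, 0.0231, 0.0255 and 0.0457% in S01 to S04 and 0.0345, 0.0247, 0.0415, 0.0255 and 0.0229% in S05 to S09. The mice S04, S05 and S07, whose rods held 87.4%, 62.7% and 78.5% of all gated UMIs, were the highest, and without them the means were 0.02596% and 0.0244%. As a percent of the same share in the rods of each mouse, the values were 2.61 ± 0.3403 (SD, n = 4) and 2.63 ± 0.264 (SD, n = 5).

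**Figure D2:**
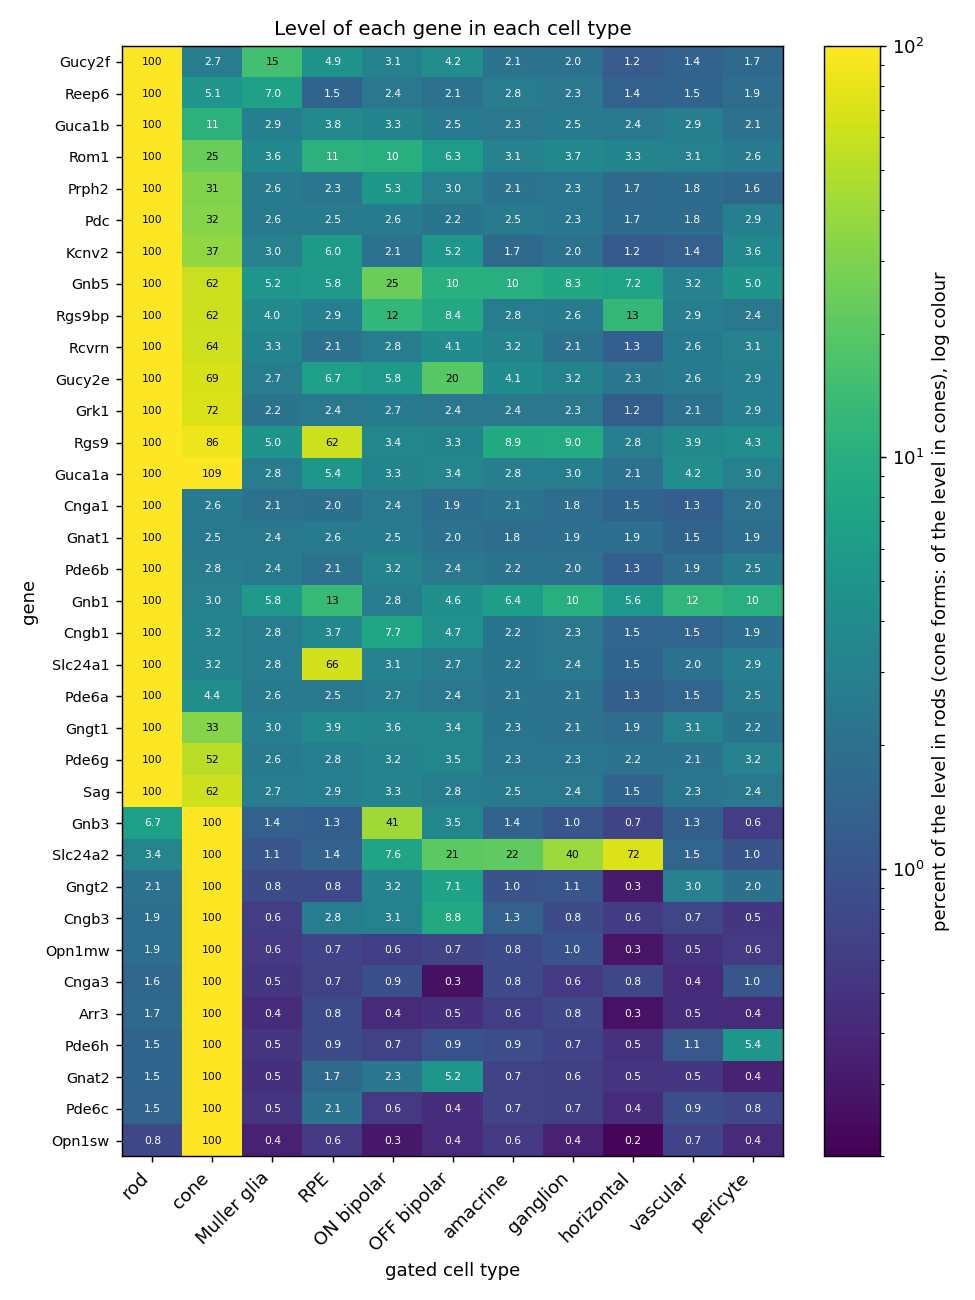
Level of each member (rows) in each gated cell type (columns) as a percent of its level in rods, or in cones for the cone forms, as means over the mice with at least 10 cells of the type; the colour scale is logarithmic. Most rod and shared genes lie near 2% to 3% outside the photoreceptors, and Slc24a1 and Rgs9 in RPE, Gnb3 in ON bipolar and Slc24a2 in horizontal cells stand out.

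In a test of each type against the mean of the other non-photoreceptor types, 32 of the 35 members were higher in at least 1 type (edgeR, mouse as block, 9 types with enough mice). This was so for 91.4% of all 17377 genes tested, so that the share of members is near the background and is not a result about the members. DESeq2 gave 28 of 35, and 33 of 35 were found without S04, S05 and S07. By type, the members higher than in the other types were 21 in ON bipolar cells (30.02% of all genes tested), 17 in OFF bipolar cells (29.8%), 12 in RPE cells (28.4%), 6 in ganglion cells (34.9%), 4 in amacrine cells (36.3%), 2 in Müller glia (32.7%), 2 in horizontal cells (16.03%), 2 in pericytes (19.2%) and 1 in vascular cells (23.1%). As percents of the 35 members these were 60, 48.6, 34.3, 17.1, 11.4, 5.71, 5.71, 5.71 and 2.86%. Many of these are small differences around the even level, and the members described next are those above 10% of their photoreceptor level in a type, a limit chosen after the values were seen, and Cngb1, Cngb3, Gnat2 and Gngt2 in bipolar cells, which lie below it. Of the 20 further genes, 19 were higher in at least 1 type.

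RPE cells held RNA of members that belong to rods or to both photoreceptors. Slc24a1 had 567, 759.8 and 1065 CPM (lowest, median and highest of 7 mice) in RPE cells, which was 65.96% ± 8.13 (SD, n = 7) of the rod level (against the other types, log2 difference 5.03, standard error 0.12, adjusted p = 8.11e-49). In the same cells the rod forms Gnat1 and Pde6b were at 2.63% ± 1.602 (SD, n = 7) and 2.08% ± 1.15 (SD, n = 7) of the rod level. All 7 mice thus had far more Slc24a1 in RPE cells than the even level, with S02 the lowest and S07 the highest. Without S07, the 1 mouse of those standing apart that had enough RPE cells, Slc24a1 was at 65.5%. The RPE cells carried 8892 CPM ± 1132 (SD, n = 3) of RPE markers, mostly Rpe65, in control mice.

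Rgs9 had 774, 1177 and 1394 CPM (lowest, median and highest of 7 mice) in RPE cells, 61.9% ± 10.8 (SD, n = 7) of the rod level (log2 difference 4.06, standard error 0.12, adjusted p = 3.51e-41). Its partners did not follow, since Gnb5 was at 5.82% and Rgs9bp at 2.89% of the rod level in RPE cells. On GRCm39, Slc24a1 lies at chr9:64830143-64858889 and overlaps Gm39361, and Rgs9 lies at chr11:109116158-109189025 and overlaps Gm39441, in each case on the opposite strand, so that the source strand of these UMIs is uncertain. Rom1 was at 10.9% ± 3.597 (SD, n = 7) in RPE cells, which was 9.697% without S07. Gnb1, which serves many receptors, was at 13.4% of the rod level in RPE cells, 11.98% in vascular cells, 10.2% in ganglion cells and 10.1% in pericytes.

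Bipolar cells held RNA of the beta subunit gene Gnb3 and of shut-off components. The transducin alpha subunit genes Gnat1 and Gnat2 were low in ON bipolar cells, at means of 61.7 and 21.6 CPM over 9 mice. Gnb3 had 326, 380.1 and 427 CPM (lowest, median and highest of 9 mice) in ON bipolar cells, 41.4% ± 3.76 (SD, n = 9) of the cone level (log2 difference 6.11, standard error 0.16, adjusted p = 6.16e-45), and only 3.51% in OFF bipolar cells. Gnb5 had 212, 244 and 271 CPM in ON bipolar cells, 24.6% ± 3.34 (SD, n = 9) of the rod level, with 10.3% in OFF bipolar and 10.2% in amacrine cells. The 9 mice lay close together for both genes, with S04 the lowest for Gnb3 and S05 the lowest for Gnb5. Rgs9bp was at 12.2% ± 1.58 (SD, n = 9) in ON bipolar and 12.7% ± 3.36 (SD, n = 6) in horizontal cells, and Rom1 at 10.02% ± 2.75 (SD, n = 9) in ON bipolar cells. Gnb3 overlaps no annotated gene, and its place on GRCm39 is chr6:124811202-124817238. Gnb5 overlaps Gm19531 and Gm48677 on the opposite strand. Cngb1, below the limit, had 45.3, 69.2 and 98.5 CPM in ON bipolar cells, where Cnga1 was at 2.41% of the rod level.

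OFF bipolar cells held the shared Gucy2e above the limit, and some cone forms below it. Gucy2e had 49.6, 78.4 and 96.2 CPM (lowest, median and highest of 9 mice) in OFF bipolar cells, 19.8% ± 5.17 (SD, n = 9) of the rod level (log2 difference 2.79, standard error 0.12, adjusted p = 6.93e-33). Cngb3 had 127, 354 and 468 CPM, 8.79% ± 2.83 (SD, n = 9) of the cone level, and Gnat2 had 37.04, 46.5 and 70.7 CPM, 5.23% ± 1.17 (SD, n = 9) of the cone level. In the same cells Arr3 was at 0.461% ± 0.256 (SD, n = 9), Opn1mw at 0.718% ± 0.249 (SD, n = 9) and Pde6c at 0.441% ± 0.331 (SD, n = 9) of their cone levels. In this measure Cngb3 and Gnat2 lay above Arr3, the most abundant cone form, in OFF bipolar cells, and the part of free RNA or doublets was not tested. Gngt2 was at 7.09%, from 208 UMIs over all mice. Gucy2e overlaps Gm73268 on the opposite strand, and Cngb3 overlaps Gm11877 on the same strand and Gm68928 on the opposite strand. The cone marker sum in OFF bipolar cells was 347 CPM ± 60.99 (SD, n = 4), mostly Thrb.

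Slc24a2, the cone exchanger, was a gene of several neurons. It had 842, 1012 and 1311 CPM (lowest, median and highest of 6 mice) in horizontal cells, 71.7% ± 27.99 (SD, n = 6) of the cone level (log2 difference 4.07, standard error 0.18, adjusted p = 2.76e-31). In ganglion cells, the output neurons of the retina, it had 526, 591 and 696 CPM or 39.7% ± 14.5 (SD, n = 8), in amacrine cells 22.1% ± 6.36 (SD, n = 9) and in OFF bipolar cells 20.96% ± 5.83 (SD, n = 9). Slc24a2 thus formed steps, from horizontal over ganglion to amacrine and OFF bipolar cells, the last 2 alike within their spread. Gucy2f had 87.7, 154 and 174 CPM (lowest, median and highest of 9 mice) in Müller glia, the supporting glia of the retina, 15.1% ± 3.11 (SD, n = 9) of the rod level (log2 difference 3.77, standard error 0.19, adjusted p = 6.47e-29). Gucy2f was low in control mouse S04, which had 20 Müller glia, and the other 8 mice lay between 129 and 174 CPM. Gucy2f overlaps Gm61777 on the opposite strand. Microglia had at least 10 cells in only 1 mouse and were not compared.

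Whether the loss of the microRNAs from the RPE went with a change of the cascade in photoreceptors was asked by comparing dKO with control mice. In rods, 0 of the 35 members passed the threshold, and the same was true of 0% of the 14149 genes tested (edgeR, quasi-likelihood F test, p adjusted by the Benjamini-Hochberg method). At an unadjusted p below 0.05 there were 286 genes, of which 1 was a member, and DESeq2 also called 0, with 282. Of the 20 further genes 0 passed. A p that misses the threshold does not show that there is no difference. In this and the later group comparisons by edgeR, fewer genes had an unadjusted p below 0.05 than chance alone would give. Differences can thus be missed. The median log2 fold change of the members was -0.09, against -0.01 for all genes, with 21 of 35 below 0. Without control mouse S04, which was high for many members, the median was 0.14 and only 7 of 35 were below 0, and without S04, S05 and S07 it was -0.05.

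The values in rods are given for the members with the lowest p. Gnb3, the cone beta subunit, had 47.1, 51.4, 34.005 and 48.1 CPM in the rods of control mice S01 to S04 and 101, 56.8, 70.1, 68.5 and 72.1 CPM in those of dKO mice S05 to S09. Every dKO mouse lay above every control mouse, with S05 the highest and S06 nearest to the controls. The log2 fold change was 0.66 (adjusted p = 1, standard error 0.16), and 0.57 without S04, S05 and S07. It did not pass the threshold in any setting tried. The 10 other cone forms in the same rods had log2 fold changes between -0.31 for Opn1sw and 0.43 for Pde6h. The others were 0.32 for Pde6c, 0.27 for Gngt2, 0.26 for Cngb3, 0.22 for Slc24a2, 0.22 for Cnga3, 0.15 for Opn1mw, 0.14 for Gnat2 and 0.12 for Arr3. Their standard errors, from 0.30 for Pde6c to 0.43 for Pde6h, were near the fold changes in size or larger. All are low levels in rods, and RNA from cones as a shared part of them was not tested. For each of these 10 the groups overlapped, and none passed the threshold. Arr3 had 94.1, 231, 89.4 and 159.6 CPM in control and 219, 166, 214, 95.96 and 109 CPM in dKO rods, with S02 the highest and S03 the lowest.

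Cnga1 had 952, 1025, 979 and 1197 CPM in control and 916, 883, 991, 968 and 1018 CPM in dKO rods. The groups overlapped, S04 was the highest and S06 the lowest, and the log2 fold change of -0.16 (adjusted p = 1, standard error 0.10) was -0.04 without S04, S05 and S07. Gucy2e had 362, 423, 398 and 534 CPM in control and 362, 401, 447, 379 and 371 CPM in dKO rods. Again S04 was the highest and the groups overlapped, with a log2 fold change of -0.18 (adjusted p = 1, standard error 0.13) that was -0.04 without the 3 mice. All members of the set together took 2.84, 2.97, 2.86 and 4.08% of rod UMIs in control and 3.47, 2.75, 3.602, 2.898 and 2.85% in dKO mice. S04, S05 and S07 were the highest, and the group means of 3.19% and 3.11% differed by less than the spread, as they did without these mice, at 2.89% and 2.83%.

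**Figure D3:**
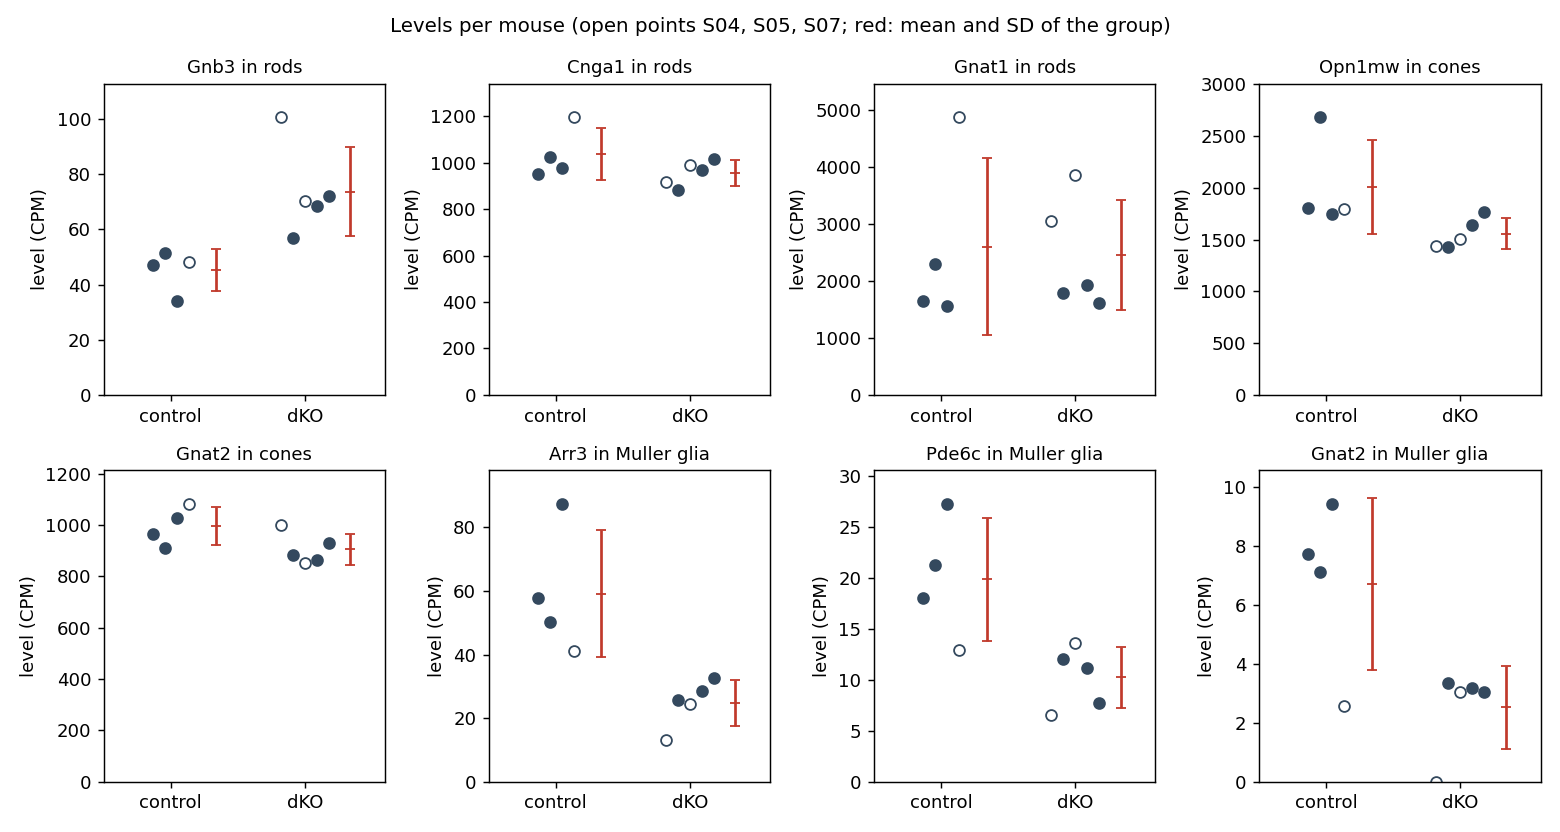
Level per mouse (y axis, CPM) of members with low p in the control and dKO groups, in rods, cones and Müller glia, with Gnat1 in rods beside them; each point is 1 mouse, open points are S04, S05 and S07, and red marks give the mean and SD of the group. Gnb3 in rods and Arr3 in Müller glia do not overlap between the groups, and Gnat1 is high in the 3 mice drawn open in either group.

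In cones, 0 of the 35 members passed the threshold, against 0% of the 10932 genes tested by edgeR, with 259 genes and 1 member at an unadjusted p below 0.05. DESeq2 called 0 genes and had 145 at that level. The median log2 fold change was 0.01 for the members and 0.00 for all genes, and 0 of the 20 further genes passed. The cone opsin Opn1mw had 1801, 2685, 1747 and 1797 CPM in control and 1435, 1433, 1508, 1645 and 1771 CPM in dKO cones. S02 was far above the others, S09 reached into the control range, and the log2 fold change was -0.38 (adjusted p = 0.9999, standard error 0.12). Without S04, S05 and S07 it was -0.36, and without control mouse S02 it was -0.21. Opn1mw passed the threshold in 1 alternative setting, without the filter on low counts. Opn1sw had 2262, 2440.4, 2655 and 2489 CPM in control and 2946, 2530.4, 2818, 2213 and 2421 CPM in dKO cones, with overlapping groups and a log2 fold change of 0.05 (adjusted p = 0.9999, standard error 0.09).

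Gnat2 had 964, 912, 1026 and 1083 CPM in control and 999, 883, 852, 865 and 932 CPM in dKO cones. The groups overlapped, with S01 and S02 below S05 and S02 also below S09, and the log2 fold change was -0.16 (adjusted p = 0.9999, standard error 0.08), or -0.11 without S04, S05 and S07. Rgs9bp had 304, 261, 278 and 250.2 CPM in control and 289, 295, 293, 309 and 354 CPM in dKO cones. S01 lay within the dKO range, and the log2 fold change was 0.16 (adjusted p = 0.9999, standard error 0.09), or 0.19 without the 3 mice. With single mice left out, this fold change of Rgs9bp ran from 0.099 to 0.19. Cones were 4.26, 8.46, 7.97 and 2.99% of the cells of S01 to S04 and 3.704, 6.11, 1.66, 6.19 and 6.69% of those of S05 to S09, so the values of S04, S05 and S07 rest on 81, 60 and 78 cones.

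The balance of the cone opsins was followed per mouse and per cell. In the mouse retina many cones hold both opsins, with more middle-wavelength opsin dorsally and more short-wavelength opsin ventrally. The log2 ratio of Opn1mw to Opn1sw UMIs in cones was -0.33, 0.14, -0.60 and -0.47 in S01 to S04 and -1.04, -0.82, -0.90, -0.43 and -0.45 in S05 to S09. The dKO mice S05, S06 and S07 were the lowest and control mouse S02 the highest, while S08 and S09 lay among the controls. The means were -0.32 ± 0.32 (SD, n = 4) and -0.73 ± 0.27 (SD, n = 5), a difference of -0.41 with no test, which was -0.30 without S04, S05 and S07. With single mice left out the difference ran from -0.51 to -0.26, the latter without control mouse S02.

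Of 1664 cones, 1619 had at least 10 opsin UMIs. Opn1mw made up over 0.9 of the opsin UMIs in 23.6% of them and under 0.1 in 22.5%, and 53.9% lay between. With each cell thinned to 2000 UMIs, the share of cones with both opsins was 45.5, 57.2, 50.8 and 43.2% in S01 to S04 and 53.3, 57.5, 61.5, 50.3 and 48.9% in S05 to S09, and unthinned it was 56.8, 68.5, 63.95 and 59.3% and 65.000, 73.5, 79.5, 63.6 and 67.4%. Thinning left out 2 cones, 1 in each of S06 and S08. In rods the thinned share was at most 0.704% in any mouse, below that of cones in every mouse. The part of free RNA, or of doublets of cones, in the cells with both opsins was not tested. Cones with at least as many Opn1mw as Opn1sw UMIs were 40.7, 44.2, 37.6 and 35.8% in control and 30.000, 32.1, 33.3, 36.2 and 36.5% in dKO mice, and S04, S08 and S09 lay together where the groups meet. Which region of the retina the cones came from was not analysed here, so that a change within cones and a different mix of dorsal and ventral cones cannot be told apart. Opn1sw overlaps Calu and Opn1mw overlaps Gm6758 on the opposite strand.

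**Figure D4:**
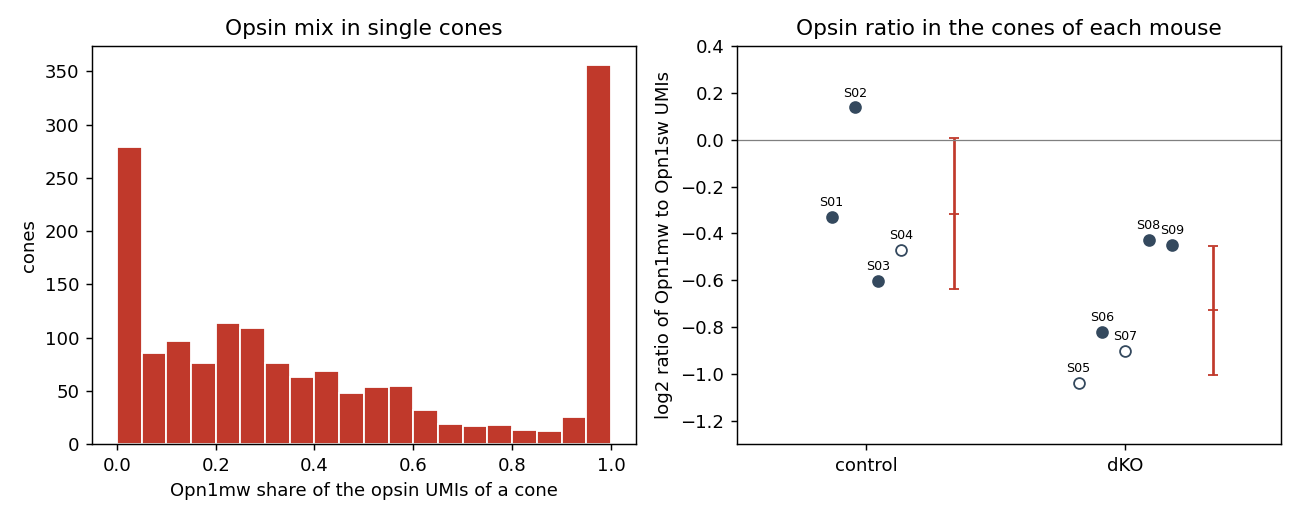
Left, number of cones (y axis) by the Opn1mw share of their opsin UMIs (x axis), over 1619 cones of 9 mice; right, log2 ratio of Opn1mw to Opn1sw UMIs (y axis) in the cones of each mouse, open points for S04, S05 and S07, with the mean and SD of each group in red. Peaks at either end and a broad middle are seen at left, and at right S05, S06 and S07 lie below all control mice.

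In Müller glia, 0 of 33 members tested passed the threshold, against 0% of the 12984 genes tested by edgeR, with 240 genes and 5 members at an unadjusted p below 0.05, and Gngt2 and Cnga3 did not pass the filter on low counts. DESeq2 called 0 genes and had 152 at that level. The 5 members, Arr3, Pde6c, Gnat2, Opn1mw and Cngb3, are all cone forms, and their fitted values were all lower in dKO mice. The median log2 fold change was -0.01 over the members tested and 0.00 over all genes. These are low levels, with Arr3 in Müller glia at 0.443% of the cone level.

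Arr3 had 57.6, 50.4, 87.5 and 41.3 CPM in the Müller glia of control mice and 13.2, 25.8, 24.3, 28.4 and 32.6 CPM in those of dKO mice. All dKO mice lay below all control mice, and the log2 fold change was -1.18 (adjusted p = 0.9998, standard error 0.23), or -1.17 without S04, S05 and S07. Pde6c had 18.001, 21.3, 27.3 and 12.9 CPM in control and 6.58, 12.05, 13.7, 11.1 and 7.76 CPM in dKO mice. Here S07 lay above S04, the remaining mice were apart, and the log2 fold change was -1.03 (adjusted p = 0.9998, standard error 0.23), or -1.10 without the 3 mice. Gnat2 had 7.71, 7.09, 9.42 and 2.58 CPM in control and 0, 3.34, 3.04, 3.18 and 3.03 CPM in dKO mice, with S04 inside the dKO range and a log2 fold change of -1.32 (adjusted p = 0.9998, standard error 0.31), or -1.34 without them. S04 and S05 had 20 and 26 Müller glia, and 3 UMIs in S05, the floor set for a 0, would be 9.88 CPM, so the 0 of Gnat2 there is not distinct from the controls. Arr3 passed the threshold without the filter on low counts and in no other setting. The same cone forms had no such order in rods, and in the pooled other cells their groups overlapped, with log2 fold changes of -0.17 for Arr3, -0.25 for Pde6c and -0.18 for Gnat2.

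The sum of the 6 cone markers in Müller glia was 802, 762, 855 and 666 CPM in control and 767, 915, 876, 883 and 874 CPM in dKO mice, mostly Thrb at 666 on average, and all 6 markers had UMIs. The groups overlapped in this sum, and its mean was higher in dKO mice. Thrb, its main part, also had UMIs in rods, so the sum does not stand for RNA of cones alone. None of the fold changes of Arr3, Pde6c and Gnat2 in Müller glia passed the threshold. The 8 rod forms of the spill-over comparison, Gnat1 among them, took 0.0245, 0.0214, 0.0185 and 0.0475% of the UMIs of Müller glia in control and 0.0468, 0.0193, 0.0513, 0.0192 and 0.0182% in dKO mice. The part of the number of cones, of free RNA or of doublets in the values of Arr3, Pde6c and Gnat2 was not tested.

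In the other cells pooled, 0 of the 35 members passed, against 0% of the 18706 genes tested by edgeR, with 381 genes and 0 members at an unadjusted p below 0.05, and DESeq2 called 0 with 396. The members' median log2 fold change was 0.01, and that of all genes was 0.00. Kcnv2 had 5.72, 6.19, 5.83 and 5.18 CPM in control and 8.06, 6.86, 9.705, 6.99 and 5.58 CPM in dKO mice, with S05 and S07 the highest and a log2 fold change of 0.31 (adjusted p = 0.9999, standard error 0.17). Without S04, S05 and S07 this was 0.12. Opn1mw had 12.1, 19.1, 19.6 and 5.75 CPM in control and 8.37, 12.7, 10.1, 14.7 and 8.61 CPM in dKO mice, and its log2 fold change was -0.46 (adjusted p = 0.9999, standard error 0.29), or -0.51 without the 3 mice. The fold change of Opn1mw ran from -0.63 to -0.28 with single mice left out. Slc24a1 had 89.6, 44.5, 89.6 and 70.8 CPM in control and 48.7, 67.7, 55.8, 69.9 and 57.9 CPM in dKO mice, with a log2 fold change of -0.30 (adjusted p = 0.9999, standard error 0.20), or -0.20 without them. For Opn1mw and Slc24a1 the groups overlapped and the lowest and highest mice were both controls.

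Whether the difference between dKO and control mice was itself unlike in rods and cones was tested in 1 model of both classes. For 0 of the 35 members, and 0% of the 14497 genes tested, did the difference pass the threshold (edgeR, mouse as block), with 438 genes and 4 members at an unadjusted p below 0.05, and DESeq2 called 0 with 269. Gnb3 had the lowest p of the members, with a difference in rods minus that in cones of 0.62 (adjusted p = 1, standard error 0.13) on the log2 scale, and Gnb3 in cones was at 849, 938, 883 and 858 CPM in control and 1087, 888, 885, 846 and 901 CPM in dKO mice. In cones the groups overlapped and S05 was the highest. The difference of Gnb3 passed the threshold without the filter on low counts and in no other setting. For Gnat1 the value was -0.39 (adjusted p = 1, standard error 0.14) and for Pde6a -0.28 (adjusted p = 1, standard error 0.11). Gnat1 had 1655, 2308, 1569.9 and 4882 CPM in control and 3059, 1795, 3863, 1923 and 1623 CPM in dKO rods, and 45.4, 47.4, 31.5 and 82.5 and 80.7, 45.5, 124, 41.6 and 52.998 CPM in cones. In both classes S04, S05 and S07 were the highest, and without them the differences were -0.25 for Gnat1, -0.15 for Pde6a and 0.58 for Gnb3.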

How the data were processed

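UMI counts were taken from the matrix deposited by the authors, who processed reads with split-pipe on GRCm39 and filtered cells in R 4.2.2 with Seurat 4.3.0, by the methods text and the submitters' notes. The named genes are the entries of the matrix with a member's name, and members and lists were chosen with earlier results of these data known. Cells were classed by the summed UMIs of 4 to 6 marker genes per type, scaled to 10000 UMIs per cell, with a minimum number of markers found, and a class was given where exactly 1 gate was passed. The thresholds were set over all cells without regard to groups, after the data had been seen. Raw UMIs were summed per mouse and class, and mice with at least 10 cells of a class were used. Depth ran from 15079143 to 66528160 UMIs per mouse.

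Groups were compared with edgeR 4.0.16 (TMM scaling, filter on low counts, quasi-likelihood test, Benjamini-Hochberg adjustment over all genes tested) in R 4.3.3 with limma 3.58.1, and rods with cones with the mouse as block, at an adjusted p below 0.05. 1 gene is not reported here, and shares of rod members are given without it. Standard errors were derived from the F statistic. DESeq2 1.42.0, library size scaling, no filter, each mouse left out, S06 and S07 summed, S04, S05 and S07 left out, a covariate for Y-linked UMIs, the 5% of cells with most UMIs removed, doubled gate thresholds, a gate of rods with 1 marker fewer and a gate of cones on 5 members were tried as alternatives. The fitting code was tested on simulated data. Exon lengths and overlapping genes came from GENCODE M39, and promoters from a RefSeq table on GRCm38.p6. Levels per kb use exon bases alone, and whether reads from introns were counted was not examined here. Tables and figures used Python 3.11.15, numpy 2.4.6, scipy 1.17.1, pandas 2.3.3 and matplotlib 3.10.9.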

Additional observations from a re-analysis of the deposited data

Results flagged for a closer look

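Of 140 groups of values, 1 for each member in rods and cones of each group of mice, 23 held a mouse far from the other mice of its group, and chance alone gives about 1 in 20.

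In the rods of control mouse S04, far above S01 to S03, stood Gngt1 (889 CPM), Pde6a (3426), Pde6g (767), Guca1a (335) and Slc24a1 (2206). In the rods of control mouse S02, Opn1mw was high (57.8 CPM), and in those of dKO mouse S05, Grk1 (1200.4) and Guca1a (533) were high.

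In the cones of S04, Gnb1 (131 CPM), Gngt1 (246), Guca1b (78.3) and Slc24a1 (61.5) were above the other controls. Opn1mw was high in the cones of S02 (2685 CPM), and Prph2 in those of S01 was low (496 CPM) against close values of the other controls. Among dKO mice, the cones of S07 were high for Gnb1 (232 CPM), Cnga1 (55.1), Cngb1 (58.7) and Gucy2f (68.1), those of S05 for Gnb3 (1087), Gngt2 (298) and Kcnv2 (145), and those of S09 for Gnb5 (675). In the cones of S06, Rgs9 was low (1528).

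Of these 23 values, 18 belong to S04, S05 and S07, the mice with more rods, fewer UMIs per cell and more Y-linked UMIs. In S07 the rod genes Gnb1, Cnga1, Cngb1 and Gucy2f were high together in cones. Y-linked UMIs, the make-up of the cells and depth go together in these mice, and their parts cannot be told apart here.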

How the results depend on the processing

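The fold changes between dKO and control of the members with the lowest p, and the rod to cone differences of all 35 members, kept their direction in every setting. The members with the lowest p were picked in these same data and the settings share most mice, so their constant direction is no independent check. Gucy2e in rods ran from -0.27 to -0.006 with single mice left out. Where cones were gated on Arr3, Gnat2, Pde6h, Opn1sw and Opn1mw, the gate itself set the direction of these 5 members, so that this setting is no test of them. In rods as a whole direction was not kept, since 21 of 35 members were below 0 in dKO mice with all mice and 7 of 35 without S04. When single mice were left out, the difference between dKO and control in the percent of UMIs took either sign, from -0.197 to 0.223 for the 35 members in rods. In the same fits, the number of genes past the threshold between dKO and control ran from 0 to 1 in rods, cones, Müller glia and the interaction, and was 0 in the other cells pooled. The values of 1 came without S01 in rods, cones and Müller glia, and without S05 in cones and the interaction. Without S04, S05 and S07, 1 gene passed in cones and 1 in Müller glia, and with doubled gate thresholds 1 passed in cones. None of these genes was a member, and the cause was not tested.

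Without the filter on low counts, 47 genes passed in cones, 2 in Müller glia and 23 in the interaction, among them 1 member in cones (Opn1mw, log2 -0.40), 1 in Müller glia (Arr3, -1.18) and 3 in the interaction (among them Gnb3, 0.61). The cause was not tested. With S06 and S07 summed as 1 mouse, and with DESeq2, 0 genes passed in each of these comparisons.

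Between rods and cones, 23 members were higher in rods with each mouse left out, and 11 to 12 were higher in cones. Guca1a and Rgs9 were the only members that lost the threshold, in 8 and 2 settings. The difference of the Opn1mw to Opn1sw log2 ratio ran from -0.51 to -0.26 with each mouse left out. No paired analysis was possible because no control mouse is matched to a dKO mouse by a shared number.

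With 4 control and 5 dKO mice, 60 to 327 cones and 20 to 374 Müller glia per mouse, small differences of low members are beyond reach. Cells near a marker threshold are many for cones (8944 cells just below, at 0.5 to 1 times the threshold), 1 of 4 control and 2 of 5 dKO mice stand apart, and regions of the retina were not analysed here.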
